A study of Mus musculus with 12 samples.

Results

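When a cell copies its DNA it must also copy the chromatin that covers it. Behind the replication fork, the sliding clamp PCNA tethers the enzymes that finish the new strands, the chaperone CAF-1 lays down new histones, and UHRF1 brings the maintenance methyltransferase DNMT1 to sites where only the parental strand carries methyl groups. The nucleosome remodeller HELLS, activated by CDCA7, opens nucleosomal DNA for this methylation, SLBP sees to the messenger RNAs that supply the histones, and UNG cuts out uracil that has entered the DNA. Resting T cells do not divide, and a stimulus through the T cell receptor takes them towards DNA synthesis.

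The genes described here are the 10 that were listed for this machinery by name: Uhrf1, Dnmt1, Hells, Cdca7, Chaf1a, Chaf1b, Slbp, Pcna, Fen1 and Ung, among 15125 loci listed in any of the 12 libraries. All 10 appear in the files and 9 entered the tests, which covered the 9743 loci that reached 1 FPKM in 3 or more libraries. Fen1 did not pass this filter on low values. FPKM count sequenced fragments per kilobase of transcript relative to a library's total, so levels can be compared between genes, but they do not reveal read numbers or depth.

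RNA was taken from CD4 T cells of mouse spleen in 4 groups of 3 libraries. These were activated KIKO, activated KI, naive KIKO and naive KI cells. The labels give the genotypes only as KI and KIKO, and the alleles behind these names, the animals' age and strain are not given in the sources used here. Activated cells of both genotypes were cultured for 16 h with beads that bind CD3 and CD28, parts of the antigen receptor and its co-stimulation. The series concerns T cells with a faulty proteasome and their cell cycle and survival, and the comparisons ask how KIKO cells differ from KI cells in each state. The titles of the activated KIKO samples say T cells without CD4, although their source field names CD4 cells. No label says that the 3 libraries of a group came from separate animals, so p-values measure the spread between these samples, which may be technical.

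The libraries listed 9771 to 11102 loci each, the fewest in KIKO naive 2. The T cell markers Cd3d, Cd3e, Cd3g, Cd4 and Cd5 were each above 48 FPKM in every library. Trac, the other listed T cell marker, was uneven within groups. It ranged from 0 FPKM, in KIKO activated 1 and KI naive 3 among others, to 99.5 FPKM in KI naive 1. Over the 8 T cell markers looked up, of which 6 were listed (Cd28 and Lck were not), the summed level was 477 to 704 FPKM in activated KIKO, 1020 to 1210 in activated KI, 798 to 945 in naive KIKO and 1080 to 1280 in naive KI libraries. Some markers of other lymphocytes were present in every library. The natural killer cell marker Klrd1 stood at 8.15 to 14.7 FPKM in naive and 0.420 to 2.68 in activated libraries. The CD8 T cell marker Cd8b1 stood at 6.51 to 16.1 FPKM, while Cd8a was at 0.591 or less. Both KIKO naive 2 and KIKO activated 2 carried further transcripts of other cells. The 7 listed of 8 myeloid markers summed to 172 FPKM in KIKO activated 2 and 215 in KIKO naive 2, against 1.22 to 8.35 in the other 10 libraries, and Gzma, a granule protease of killer lymphocytes, stood at 7.57 and 8.01 FPKM and at 0 elsewhere. Their part in the results was not tested beyond leaving both libraries out, and counts without them stand beside the results. In bulk RNA, fewer cells of a type and less RNA per cell cannot be told apart.

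Members were compared by a sequence motif that links proteins to the clamp. UNG has a nuclear and a mitochondrial form that start from different first exons, and the nuclear form carries near its start a PCNA-interacting motif, the short stretch by which many replication proteins hold the clamp. The coding bases that each form has to itself are shown because both starts were measured separately in these libraries. They come from GENCODE M21 (GRCm38, plus strand), chr5:114130503-114130625 for the nuclear form of 306 residues and chr5:114131229-114131318 for the mitochondrial form of 295. Capitals mark the codons of the motif, which begins at residue 4.
Ung nuclear form: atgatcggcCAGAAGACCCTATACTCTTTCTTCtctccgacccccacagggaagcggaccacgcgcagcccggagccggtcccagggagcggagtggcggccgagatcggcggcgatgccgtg
Ung mitochondrial form: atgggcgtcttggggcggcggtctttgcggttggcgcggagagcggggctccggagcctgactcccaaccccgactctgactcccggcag
The motif was searched in translated GENCODE proteins as glutamine, 2 residues of any kind, isoleucine, leucine or methionine, 2 residues of any kind, and 2 aromatic residues that were each phenylalanine or tyrosine. It was found in 2 of the 10 members, 20.0%, against 518 of 21877 protein-coding gene symbols, 2.37%. Besides the nuclear form of UNG, these were all 4 Fen1 proteins, at residue 337 of 380. None of the proteins of Chaf1a or Dnmt1 held these exact letters. The search finds only this strict pattern, so a miss does not show that a protein lacks a link to the clamp.

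Promoters were searched for the E2F-type letters TTTCGCGC, TTTGGCGC, TTTCCCGC and TTTGCCGC on both strands, from 250 bases before to 50 after each gene's start. E2F factors switch on genes of the S phase. The windows are RefSeq's for GRCm38.p6, and all 10 members matched, with 14 windows. The letters occurred in 4 of the 10 genes, 40.0%, against 704 of 27025 gene symbols, 2.6%. Counted by window, 4 of 14 held them, 28.6%, against 744 of 32851, 2.26%. The 4 genes are shown with 30 bases around the match, the matched letters in capitals, as a description of these windows.
Cdca7, chr2:72476137-72476166, plus strand: tgcgtcccggcGCGGGAAAgccggtggccc
Hells, chr19:38930917-38930946, plus strand: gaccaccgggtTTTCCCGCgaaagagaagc
Uhrf1, chr17:56304117-56304146, plus strand: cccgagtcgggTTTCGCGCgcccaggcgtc
Dnmt1, chr9:20952824-20952853, minus strand: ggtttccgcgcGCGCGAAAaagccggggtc
The first match begins 71 bases before the start in Cdca7, 62 in Hells, 185 in Uhrf1 and 219 in Dnmt1, each counted from the start of its window. A window of Dnmt1 also held TTTGGCGC 34 bases into the gene.

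In activated cells, all 9 tested members were lower in KIKO than in KI. Group means were between 2.56-fold (Slbp) and 9.80-fold (Ung) lower, and the groups overlapped for none of the 9. Absence of overlap also occurred for genes that were not called, such as Aptx and Tet2, and its share over all loci was not computed. The members' median difference was -1.8 on the log2(FPKM + 1) scale, beside 0.04 over all 9743 loci. Of all loci, 19.3% were called lower and 20.7% higher by limma at an adjusted p under 0.05. No member was called higher, also at an unadjusted p under 0.05. The count of 9 lower was the same without both libraries that carried myeloid transcripts. Fold changes on this scale understate the change of genes with low FPKM.

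**Figure D1:**
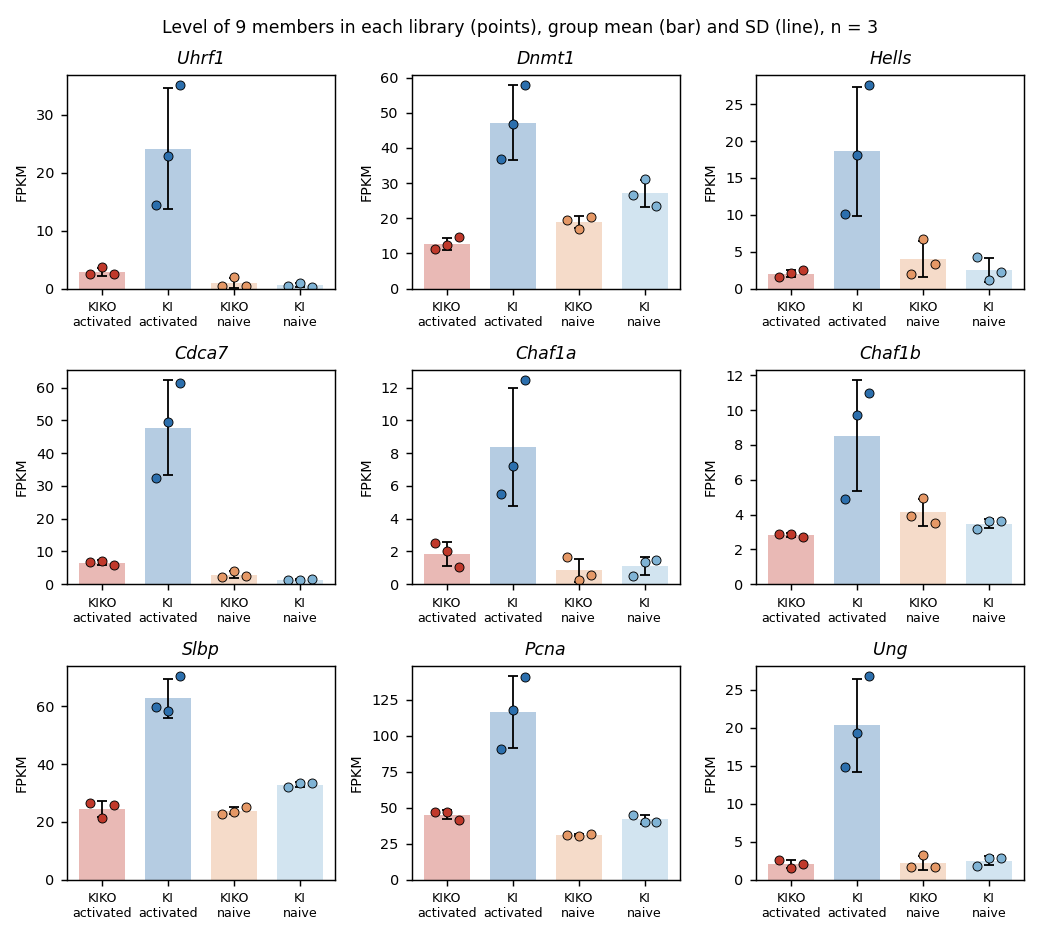
FPKM (y axis, linear from 0) of the 9 tested members in each library (points), with the group mean (bar) and SD (line), n = 3, for activated KIKO, activated KI, naive KIKO and naive KI cells. In every panel the 3 activated KIKO points lie below the 3 activated KI points, and for Uhrf1, Cdca7 and Ung the activated KI bar stands alone.

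Uhrf1 encodes the reader of half-methylated DNA and of histone tails that recruits DNMT1 (locus at chr17:56610183-56630486, plus strand; this and all other locus coordinates are GRCm39). It had 2.5, 3.72 and 2.48 FPKM in activated KIKO libraries, against 14.4, 23.0 and 35.2 FPKM in activated KI libraries. Naive cells held little of it in either genotype, with 0.466, 2.04 and 0.536 FPKM in KIKO and 0.526, 0.937 and 0.220 in KI. The highest naive value was in KIKO naive 2, where the listed transcript starts of the gene were near 0. On stimulation the level rose in KIKO cells by 1.03 ± 0.34 (SE) log2 units (adjusted p = 0.0245) and in KI cells by 3.95 ± 0.34 (adjusted p = 1.16e-06). The rise in KIKO cells is less secure. Its adjusted p was 0.0914 without KIKO activated 2, 0.0871 without KIKO naive 1 and 0.0829 without KIKO naive 3. The rise differed between the genotypes by -2.93 ± 0.47 (adjusted p = 0.00179).

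Dnmt1, the maintenance DNA methyltransferase (chr9:20833650-20864275, minus strand), was well expressed in resting cells and moved in opposite directions in the genotypes. It had 11.2, 12.4 and 14.6 FPKM in activated KIKO libraries, against 36.8, 46.8 and 58.0 in activated KI libraries. Naive libraries held 19.5, 16.9 and 20.4 FPKM in KIKO, against 26.5, 31.2 and 23.5 in KI. On stimulation of KIKO cells it fell by 0.54 ± 0.16 log2 units (adjusted p = 0.0157), while in KI cells it rose by 0.77 ± 0.16 (adjusted p = 0.0013). The fall was not called without KIKO activated 1 (adjusted p = 0.0659) or without KIKO naive 3 (adjusted p = 0.0537). All 3 activated KIKO values lay below all 6 naive values. Of 9 tested members it was the only one called lower on stimulation of KIKO cells. Between genotypes in activated cells the difference was -1.80 ± 0.16 (adjusted p = 6.97e-06). Most of its transcripts used the start with a first exon of 272 bases, the annotated length for the transcript of the 1620-residue protein. That start held at least 78.3% of the summed starts in each of the 12 libraries, the lowest share being in KIKO activated 2.

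Hells encodes the remodelling ATPase needed for normal DNA methylation, and Cdca7 its zinc-finger partner. In humans, mutations of either gene cause an immunodeficiency with unstable centromeres. Hells (chr19:38919348-38959612, plus strand) had 1.56, 2.08 and 2.49 FPKM in activated KIKO libraries, against 10.2, 18.1 and 27.6 in activated KI libraries. Naive levels were scattered, at 2.01, 6.75 and 3.36 FPKM in KIKO and 4.24, 1.13 and 2.22 in KI. The activated KIKO values therefore fell within the range of resting KI cells, and the change on stimulation of KIKO cells was -0.63 ± 0.41 log2 units (adjusted p = 0.226). In KI cells it rose by 2.47 ± 0.41 (adjusted p = 0.000212). The genotypes differed by -2.60 ± 0.41 in activated cells (adjusted p = 0.000374).

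Cdca7 (chr2:72306494-72317237, plus strand) was the member with the largest rise on stimulation of KI cells on the log2(FPKM + 1) scale. By group means Uhrf1 rose more, 43.1-fold against 34.98-fold for Cdca7. Cdca7 had 6.91, 7.11 and 5.77 FPKM in activated KIKO libraries, against 32.6, 49.6 and 61.3 in activated KI libraries. Naive libraries held 2.10, 4.01 and 2.41 FPKM in KIKO, against 1.38, 1.29 and 1.43 in KI. The naive groups did not overlap, with KIKO higher, yet this difference was not called (0.67 ± 0.22 log2 units, adjusted p = 0.0735), and with summed transcript starts alone it was -0.21. Stimulation raised the gene by 1.01 ± 0.22 in KIKO cells (adjusted p = 0.00242) and by 4.32 ± 0.22 in KI cells (adjusted p = 4.0e-08). With summed starts alone the KIKO rise was 1.90. The 2 rises differed by -3.31 ± 0.31 (adjusted p = 0.000138), and activated KIKO cells differed from activated KI cells by -2.64 ± 0.22 (adjusted p = 4.11e-06).

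Chaf1a and Chaf1b encode the large and the middle subunit of CAF-1. Chaf1a (chr17:56347341-56379289, plus strand) had 2.5, 2.01 and 1.05 FPKM in activated KIKO libraries, against 5.50, 7.19 and 12.4 in activated KI libraries. In naive libraries it stood at 1.66, 0.270 and 0.585 FPKM in KIKO and at 0.471, 1.35 and 1.48 in KI. Except in KIKO naive 3, part or all of this naive level came from a start farther downstream, given below. Levels this low leave wide errors. The difference in activated cells was -1.68 ± 0.34 log2 units (adjusted p = 0.00211). The change on stimulation of KIKO cells was 0.67 ± 0.34 (adjusted p = 0.128), and in KI cells the gene rose by 2.13 ± 0.34 (adjusted p = 0.000181). The difference between these changes, -1.46 ± 0.49, was the one among 9 that missed the threshold (adjusted p = 0.0527), and it was called with both myeloid-marked libraries left out (-1.74, adjusted p = 0.0425).

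Chaf1b (chr16:93680789-93703003, plus strand) had 2.89, 2.9 and 2.68 FPKM in activated KIKO libraries, against 4.91, 9.70 and 11.0 in activated KI libraries. Naive libraries held 3.92, 4.96 and 3.49 FPKM in KIKO and 3.16, 3.62 and 3.6 in KI. All 3 activated KIKO values were thus below all 6 naive ones, although the change in KIKO cells was not called (-0.41 ± 0.22 log2 units, adjusted p = 0.144). In KI cells the gene rose by 1.03 ± 0.22 (adjusted p = 0.00141). The difference between genotypes in activated cells, -1.25 ± 0.22, was the smallest among the 9 on the log2(FPKM + 1) scale (adjusted p = 0.000793). By group means Chaf1b was 3.02-fold lower, more than Slbp (2.56-fold) and Pcna (2.58-fold).

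Pcna, the clamp itself (chr2:132091082-132095234, minus strand), had the highest level of the members. It stood at 47.1, 46.9 and 41.4 FPKM in activated KIKO libraries, against 90.6, 118 and 141 in activated KI libraries. Naive libraries held 31.1, 30.6 and 32.0 FPKM in KIKO, against 45.2, 39.9 and 40.3 in KI. The activated KIKO level was close to that of resting KI cells. Stimulation raised it by 0.51 ± 0.13 log2 units in KIKO cells (adjusted p = 0.00749), which was not called without both myeloid-marked libraries (0.47, adjusted p = 0.0556), and by 1.44 ± 0.13 in KI cells (adjusted p = 2.27e-06). In activated cells the genotypes differed by -1.33 ± 0.13 (adjusted p = 1.6e-05). In naive cells KIKO values all lay below KI values, with a difference of -0.41 ± 0.13 that was not called (adjusted p = 0.0741). A processed pseudogene of Pcna is annotated, so reads could be shared with it.

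Fen1, the flap endonuclease that trims Okazaki fragments (chr19:10176496-10181533, minus strand), was listed in KI naive 2 alone, at 1.87 FPKM, and was absent in all 6 activated libraries. Events at 0 are left out of these files and genes can be missing from them for other reasons, so no statement on its level is made.

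Ung encodes uracil-DNA glycosylase (chr5:114268447-114277384, plus strand), which in B cells also takes part in class switching. It had 2.63, 1.49 and 2.10 FPKM in activated KIKO libraries, against 14.8, 19.3 and 26.9 in activated KI libraries. Naive libraries held 1.68, 3.29 and 1.62 FPKM in KIKO and 1.85, 2.83 and 2.89 in KI. The 9 libraries other than activated KI thus shared one low range. The change on stimulation of KIKO cells was -0.03 ± 0.25 log2 units (adjusted p = 0.92), 0.34 without both myeloid-marked libraries, and in KI cells Ung rose by 2.57 ± 0.25 (adjusted p = 3.01e-06). The difference in activated cells, -2.77 ± 0.25, was the largest of the 9 (adjusted p = 6.95e-06).

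The starts of Ung shown above changed in different proportions. The listed upstream start has a first exon of 240 bases, the length annotated for the nuclear form, and held 1.44, 0.290 and 0.501 FPKM in activated KIKO libraries, against 4.55, 8.20 and 13.9 in activated KI libraries. In naive libraries it was listed once, at 0.171 FPKM in KIKO naive 1. The next start, with the 588-base first exon of the mitochondrial form, held 1.19, 1.20 and 1.60 FPKM in activated KIKO libraries and 10.2, 11.0 and 12.9 in activated KI libraries. It was present in all 6 naive libraries, at 1.51, 3.29 and 1.61 FPKM in KIKO and 1.85, 2.83 and 2.89 in KI. The upstream start, that of the form with the PCNA-interacting motif, made up 54.8%, 19.5% and 23.9% of the summed starts in activated KIKO libraries and 30.7%, 42.5% and 51.9% in activated KI libraries. These shares overlap between the genotypes, and the difference was not tested.

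**Figure D2:**
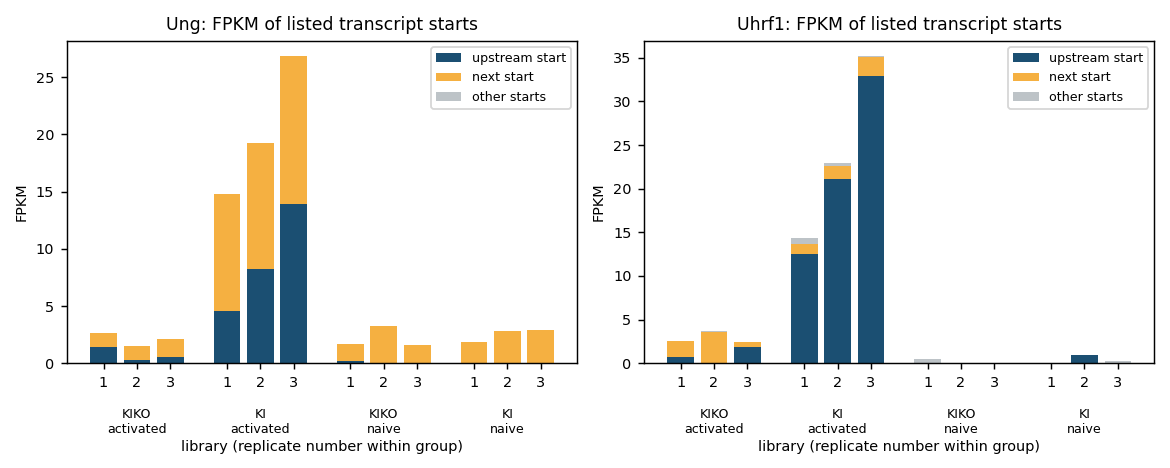
Stacked bars of the FPKM (y axis) of listed transcript starts of Ung (left) and Uhrf1 (right) in each of the 12 libraries, grouped as activated KIKO, activated KI, naive KIKO and naive KI. The upstream start of Ung reaches 4.55 to 13.9 FPKM in activated KI libraries and 0.290 to 1.44 in activated KIKO libraries, and the bars of Uhrf1 in activated KI libraries are mostly its upstream start.

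Uhrf1 also had more than a single listed start. Its most upstream start held 0.672, 0 and 1.87 FPKM in activated KIKO libraries, against 12.5, 21.1 and 33.0 in activated KI libraries. That was 26.8%, 0% and 75.1% of the summed starts in activated KIKO, against 87.0%, 91.9% and 93.6% in activated KI. The next start held 1.83, 3.53 and 0.616 FPKM in activated KIKO libraries and 1.17, 1.5 and 2.18 in activated KI libraries, and these ranges overlap. Only for the upstream start, of these 2, did the activated KIKO values all lie below the activated KI values. Neither of these first exon lengths, 379 and 105 bases, was found among GENCODE M21 transcripts of the gene. In Chaf1a, the upstream start held 1.07, 2.01 and 1.05 FPKM in activated KIKO libraries, against 5.50, 7.19 and 12.4 in activated KI libraries. A start farther downstream, with the 821-base first exon of an annotated noncoding transcript, was listed in activated cells only in KIKO activated 1, at 1.43 FPKM. In naive libraries this downstream start held 1.5, 0.155 and 0 FPKM in KIKO and 0.471, 0.959 and 0.685 in KI. The upstream start of Chaf1a held 0.157, 0.115 and 0.585 FPKM in naive KIKO libraries and 0, 0.390 and 0.797 in naive KI libraries.

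Slbp, the stem-loop binding protein of histone messenger RNA (chr5:33792296-33809644, minus strand), had library values within 1.24 times of each other in every group. It had 26.5, 21.4 and 25.7 FPKM in activated KIKO libraries, against 59.6, 58.2 and 70.5 in activated KI libraries. Naive libraries held 22.8, 23.4 and 25.2 FPKM in KIKO, against 31.9, 33.4 and 33.4 in KI. It was thus lower in KIKO in both states, and in KIKO cells its level was about the same in both. The change on stimulation of KIKO cells was 0.04 ± 0.10 log2 units (adjusted p = 0.78), with the other sign under quantile normalization (-0.03) and under equal sums (-0.07), and in KI cells it rose by 0.91 ± 0.10 (adjusted p = 1.02e-05). The activated difference was -1.32 ± 0.10 (adjusted p = 2.8e-06). An intron at chr5:33802981-33803354 was also listed as retained, at 2.19%, 0.843% and 21.9% of retained and spliced forms together in activated KIKO, 3.85%, 0% and 0.850% in activated KI, 0%, 0% and 20.6% in naive KIKO and 7.07%, 7.02% and 14.8% in naive KI libraries. The shares overlap between genotypes in both states.

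In naive cells, 1 of the 9 tested members differed between KIKO and KI. Slbp was lower (-0.45 ± 0.10 log2 units, adjusted p = 0.0174), a call that was lost without KIKO naive 1 (adjusted p = 0.0545), KI naive 2 (0.0563) or KI naive 3 (0.0568). Over all loci 3.9% were called lower and 6.46% higher in this comparison. No member was called higher by limma, and at an unadjusted p under 0.05 there was 1 higher (Cdca7) and 3 lower (Slbp, Pcna and Dnmt1). Dnmt1, at -0.49 ± 0.16, was not called (adjusted p = 0.0749). The remaining 5 members had adjusted p of 0.466 or more. Uhrf1 and Chaf1a, at 0.31 and -0.23, changed sign when KIKO naive 2 was left out (-0.03 and 0.003).

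Stimulation of KIKO cells raised 3 members, Uhrf1, Cdca7 and Pcna, and lowered 1, Dnmt1, with a median of 0.04 beside 0.004 over all loci. There 25.1% of all loci were called higher and 22.2% lower, so the share of members that rose is near that of all loci. Without both myeloid-marked libraries 2 members were called higher and 1 lower. Stimulation of KI cells raised all 9 tested members, by 0.77 (Dnmt1) to 4.32 (Cdca7) log2 units, with a median of 2.13 beside -0.006 over all loci. Of all loci 32.2% were called higher and 29.5% lower. Uhrf1 averaged 24.2 ± 10.5 FPKM in activated and 0.561 ± 0.359 in naive KI cells (SD, n = 3 each), and Cdca7 47.8 ± 14.5 and 1.37 ± 0.0729. Within activated KI cells the members moved together. KI activated 3 had the highest value of all 9, and KI activated 1 the lowest of 8, the exception being Slbp. The highest library was 2.45 times the lowest for Uhrf1, 2.72 times for Hells and 1.21 times for Slbp. KI activated 3 was also the highest and KI activated 1 the lowest of this group for Mcm3, Bzw2 and Myc, but not for Il2ra or Cd69. The order is thus not particular to the members, and the share of all loci with it was not computed.

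The genotype by activation interaction, the test of whether the change on stimulation differs between KIKO and KI, was below 0 for all 9 tested members and called for 8, all but Chaf1a (adjusted p = 0.0527). Of all loci 11.6% were called lower and 8.99% higher. The members' median was -1.46 beside -0.008. The largest were Cdca7 at -3.31, Hells at -3.10 and Uhrf1 at -2.93, and the smallest called ones were Pcna at -0.92 and Slbp at -0.87. No member was called higher, also at an unadjusted p under 0.05.

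**Figure D3:**
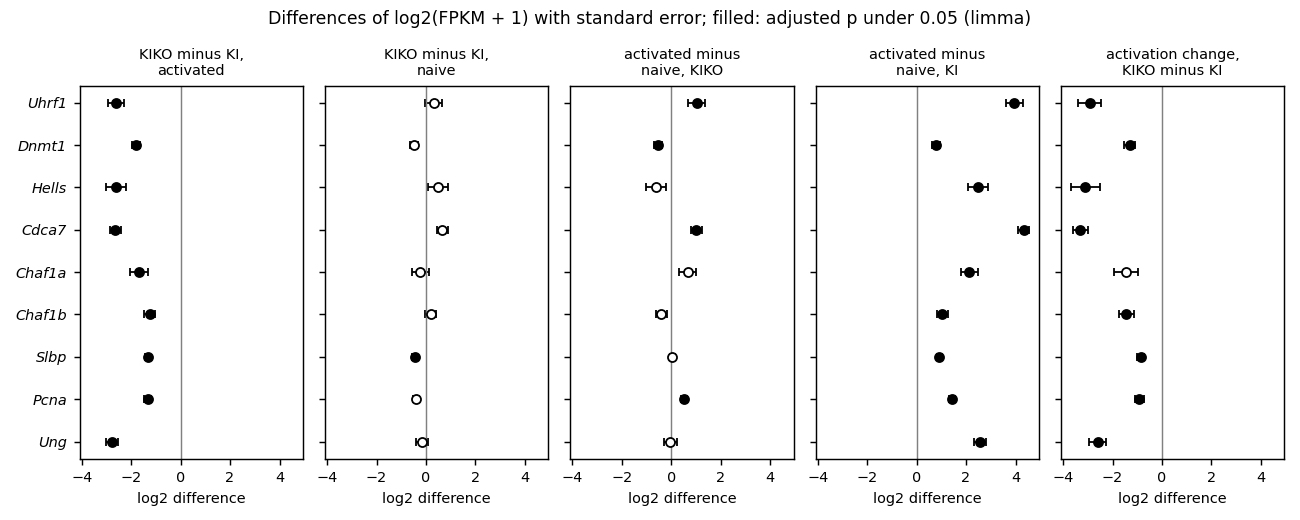
Differences of log2(FPKM + 1) (x axis) with their standard errors for the 9 tested members in 5 comparisons, filled where limma's adjusted p is under 0.05. In the first panel, KIKO minus KI in activated cells, all 9 points lie between -2.77 and -1.25, while in the naive panel they lie between -0.49 and 0.67.

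Other genes of the T cell response were read beside the members. Cd69, an early activation marker, had 161, 197 and 113 FPKM in activated KIKO libraries, against 167, 199 and 154 in activated KI libraries, a difference of -0.17 that was not called (adjusted p = 0.477), and 0.05 without KIKO activated 3. In naive cells it was higher in KIKO, with 10.3, 9.31 and 11.2 FPKM in KIKO libraries, against 5.75, 4.97 and 6.36 in KI libraries (0.75 ± 0.18, adjusted p = 0.0198), a call lost without KIKO naive 3, KI naive 1 or KI naive 2 (adjusted p = 0.0599 to 0.0727). It rose on stimulation by 3.77 ± 0.18 log2 units in KIKO cells and by 4.70 ± 0.18 in KI cells, and the rises differed by -0.92 ± 0.25 (adjusted p = 0.0218), a call lost without KI activated 2 or KI naive 2 (adjusted p = 0.059 and 0.0558) and with quantile normalization (adjusted p = 0.0675). The growth regulator Myc had 34.4, 44.2 and 27.6 FPKM in activated KIKO libraries, against 85.3, 99.1 and 118 in activated KI libraries. Il2ra, the alpha chain of the interleukin-2 receptor, had 52.6, 65.8 and 40.7 FPKM in activated KIKO libraries, against 107, 108 and 104 in activated KI libraries, a difference of -1.01 (adjusted p = 0.0108) that was not called with a pseudocount of 0.1 (adjusted p = 0.315). E2f1, a transcription factor of the S phase programme, was lower in activated KIKO cells (-1.36 ± 0.31, adjusted p = 0.0043), with 0.543, 1.56 and 0.555 FPKM against 2.53, 3.54 and 5.50 in activated KI. Cdkn1a, the inhibitor p21 that binds both cyclin-dependent kinases and PCNA, was higher, with 85.2, 119 and 56.0 FPKM in activated KIKO libraries, against 12.1, 9.69 and 6.73 in activated KI libraries. Mki67 was low in every group. It averaged 0.335 FPKM in activated KIKO, 1.04 in activated KI, 1.63 in naive KIKO and 0.138 in naive KI cells. By limma it was not called in activated cells (-0.49 ± 0.38, adjusted p = 0.34) or on stimulation of KI cells (0.71 ± 0.38, adjusted p = 0.129). The interaction was called lower (-1.70 ± 0.54, adjusted p = 0.0438).

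The other genes of these pathways were read from lists, and the largest share of lower genes in activated KIKO cells was in clamp loading and Okazaki fragment processing. The counts of every list stand beside 19.3% of all loci called lower and 20.7% called higher in activated KIKO cells. For the interaction these shares were 11.6% and 8.99%. Of 19 genes 16 were tested, 14 were lower and 1 higher, with a median of -0.97. Pold1, the catalytic subunit of the lagging-strand polymerase delta, had 7.84, 6.58 and 8.82 FPKM in activated KIKO libraries, against 23.8, 29.5 and 36.0 in activated KI libraries (-1.80 ± 0.15, adjusted p = 3.7e-06). The clamp loader subunit Rfc4 differed by -1.79 ± 0.20 (adjusted p = 3.8e-05), and the ribonuclease H2 subunits Rnaseh2b and Rnaseh2c by -1.39 and -0.97. Pold4, the smallest subunit of the same polymerase, was the gene called higher (0.52 ± 0.14, adjusted p = 0.0107), with 46.3, 33.5 and 50.3 FPKM in activated KIKO and 34.2, 26.5 and 28.4 in activated KI libraries, ranges that overlap. On stimulation of KIKO cells 2 of these 16 rose and 3 fell, beside 25.1% of all loci called higher and 22.2% lower. In KI cells 14 rose and Pold4 fell, beside 32.2% and 29.5% of all loci. The interaction was called lower for 12. In naive cells 2 of the 16 were called lower in KIKO, beside 3.9% of all loci. These were Pold1 (-0.60 ± 0.15, adjusted p = 0.0248) and Rnaseh2c (-0.58 ± 0.12, adjusted p = 0.0108). The interaction was called for Pold1 (-1.21, adjusted p = 0.00236) but not for Rnaseh2c (-0.38, adjusted p = 0.131).

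Among histone chaperones, 18 of 22 genes were tested, 9 were lower, 2 were higher and the median was -0.25. The paralogues Asf1a and Asf1b, which hand histones H3 and H4 to CAF-1 and to other chaperones, differed in opposite directions in activated cells. Asf1b had 1.43, 2.35 and 1.54 FPKM in activated KIKO libraries, against 6.95, 6.21 and 8.57 in activated KI libraries (-1.57 ± 0.18, adjusted p = 4.22e-05). Asf1a had 17.4, 17.8 and 16.0 FPKM in activated KIKO libraries, against 9.90, 11.7 and 10.5 in activated KI libraries (0.63 ± 0.10, adjusted p = 0.000524). Asf1a was also called higher in naive KIKO cells (0.49 ± 0.10, adjusted p = 0.0126), and its interaction was not called (0.14, adjusted p = 0.557). Asf1b was not called in naive cells (-0.39, adjusted p = 0.199), and its interaction was called lower (-1.19, adjusted p = 0.00782). The histone acetyltransferase Hat1 differed by -1.26, the FACT subunit Supt16 by -0.64, and the histone carrier Nasp by -1.03, which with summed starts alone was -0.71 and not called (adjusted p = 0.265).

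DNA methylation factors and readers outside the maintenance machinery were split. Of 17 genes 15 were tested, 6 were higher, 3 were lower (Cdca7l, Mbd3 and Dnmt3a) and 6 were not called, with a median of 0.34. The same 3 were called lower in the interaction and 2 were called higher, Gadd45a (1.45, adjusted p = 0.0022) and Zbtb4 (0.76, adjusted p = 0.0141). The de novo methyltransferase Dnmt3a had 7.99, 12.8 and 9.35 FPKM in activated KIKO libraries, against 15.4, 18.5 and 16.5 in activated KI libraries (-0.71 ± 0.16, adjusted p = 0.00405). Mbd3, a subunit of a repressive remodelling complex, differed by -0.78. Cdca7l, the paralogue of Cdca7, had 2.65, 2.24 and 2.94 FPKM in activated KIKO libraries, against 10.1, 14.3 and 19.6 in activated KI libraries (-2.08 ± 0.22), although none of its listed first and last exon lengths was found in GENCODE M21, so its name rests on the files. Gadd45a, a stress-induced gene tied to DNA repair and demethylation, was higher (1.07 ± 0.17, adjusted p = 0.000458), with 9.85, 7.64 and 7.2 FPKM in activated KIKO and 4.27, 3.08 and 2.82 in activated KI libraries.

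Genes of silent chromatin were lower or not called. Of 20 genes 17 were tested, 8 were lower and none higher by limma, with 1 higher at an unadjusted p under 0.05 and 2 called higher under equal sums, and the median was -0.36. Cbx5, the heterochromatin protein HP1 alpha, had 1.91, 1.66 and 1.81 FPKM in activated KIKO libraries, against 5.66, 7.00 and 10.8 in activated KI libraries (-1.62 ± 0.18). Lamin B1, from Lmnb1, differed by -0.92, the corepressor Trim28 by -0.63 and the deacetylase Hdac1 by -0.47. Hdac1 was also called lower in naive KIKO cells (-0.29 ± 0.08, adjusted p = 0.0433), and its interaction was not called (-0.18, adjusted p = 0.305). The interaction was called lower for 3 of these 17 genes, among them Cbx5 and Trim28. In base excision repair, the pathway that UNG opens, 17 of 18 genes were tested, 5 were lower and none higher by limma, also at an unadjusted p under 0.05, and the median was -0.20. The endonuclease Apex1 had 21.1, 25.9 and 20.4 FPKM in activated KIKO libraries, against 43.9, 51.7 and 63.5 in activated KI libraries (-1.19 ± 0.23, adjusted p = 0.00154). Unlike Ung it rose in both genotypes on stimulation, by 2.08 ± 0.23 in KIKO cells and by 3.65 ± 0.23 in KI cells. The poly(ADP-ribose) polymerases Parp1 and Parp2 differed by -0.81 and -0.79. In histone mRNA processing 7 of 10 genes were tested, 2 were lower, Cpsf3 (-0.65) and Cpsf2 (-0.41), 1 was higher and the median was -0.09. These 2 encode the endonuclease that cuts histone transcripts and its partner. The genes called lower in base excision repair (5 of 17) and in histone mRNA processing (2 of 7) are not far from the 19.3% of all loci.

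**Figure D4:**
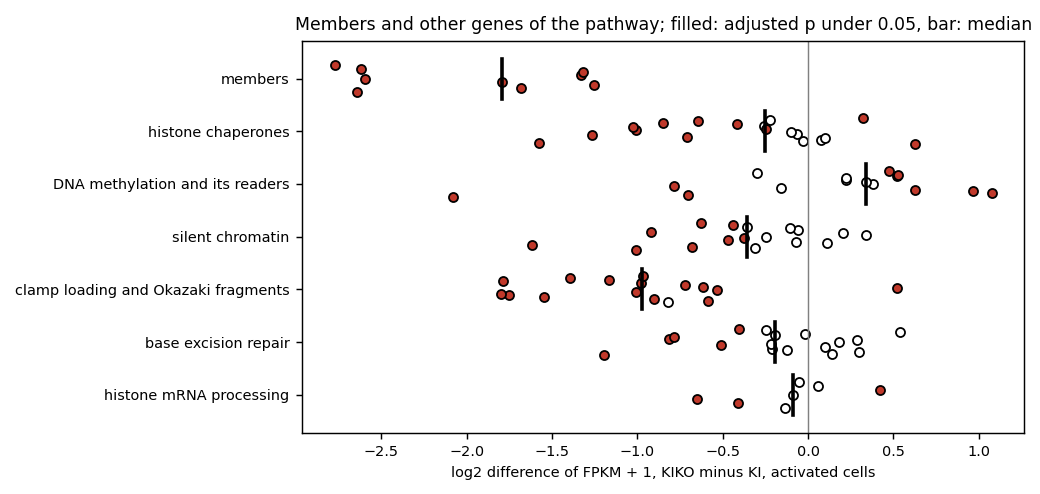
Log2 difference of FPKM + 1 (x axis), KIKO minus KI in activated cells, for every tested gene of the members and 6 pathway lists (rows), filled where the adjusted p is under 0.05, with a bar at each median. The members' median is -1.8 and that of clamp loading -0.97, while that of DNA methylation and its readers is 0.34.

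Among other loci, the 5 whose profile over the 12 libraries was most like the members' mean profile, by Pearson correlation as a description, were Alpl (0.995), Mcm3 (0.989), Fignl1 (0.987), Cops3 (0.987) and Bzw2 (0.985). Mcm3 is a subunit of the replicative helicase, and Alpl encodes tissue-nonspecific alkaline phosphatase. Alpl was listed in activated KI libraries alone, at 1.08, 1.44 and 1.71 FPKM. Fignl1, an ATPase of recombination repair, was listed at 0, 0.488 and 0.147 FPKM in activated KIKO libraries, against 3.19, 5.83 and 8.40 in activated KI libraries, and at 0 in naive libraries. Of the members themselves, Ung was nearest to the mean profile (0.987) and Dnmt1 farthest (0.83). These libraries share their groups, so such correlations are high for any locus that stands out in activated KI cells.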

How the data were processed

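RNA of 12 libraries was measured as poly(A) RNA-seq after stranded TaKaRa library preparation, as the labels' protocols describe. FastQC 0.11.9, cutadapt 2.9 and HISAT2 2.2.0 are named in the submitters' processing notes, with GRCm39 and mm10 as builds. The authors deposited FPKM of transcript events (starts, ends, exon and intron choices), 1 file per library. No source used here names the program behind these values. Locus starts in the files differ from GENCODE M21 on GRCm38, and file coordinates are given as GRCm39.

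The level of a locus was the largest of its summed starts, its summed ends and its largest event, with repeated lines of an event dropped. Unlisted events were taken as 0, which need not mean silence. limma 3.58.1 in R 4.3.3 was fitted with an intensity trend to log2(FPKM + 1), a pseudocount of 1, of 9743 loci with 4 group means, and moderated two-sided tests of 5 comparisons were adjusted over all loci by the Benjamini-Hochberg method and called under 0.05. The script was tested on simulated data. Standard errors are the model's, and adjusted p in the text are from this fit. Comparisons share groups, so their results are not independent.

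The members and the gene lists were chosen with earlier results of these data known, so no result here is an independent test of them. Named were all members, up to 4 genes of a list with the smallest p, genes called against most of their list, the 5 loci most like the members, and Cd4, Cd69, Il2ra, Myc, Cdkn1a, E2f1 and Mki67. Of genes the rule allows, part is named. Gene names are those of the files. For all 10 members, at least 1 listed start has the length of a first exon that GENCODE M21 gives the gene. For Uhrf1, Hells, Cdca7 and Chaf1a the start with the most FPKM in activated KI cells has no such match. Their matching starts belong to transcripts without an annotated protein, so these names rest more on the files. Proteins were translated from GENCODE M21 with Biopython 1.88. Alternatives were other pseudocounts, filters, scalings and level definitions, a replicate block, only the libraries compared, no intensity trend and each library left out, and 1 added after seeing the data, leaving out both libraries with myeloid transcripts.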

Additional observations from a re-analysis of the deposited data

Results flagged for a closer look

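For 8 of 9 tested members the change on stimulation differed between KIKO and KI cells, by limma's test of the interaction of genotype and activation. The difference in log2 change, KIKO minus KI, was -3.31 for Cdca7 (adjusted p = 0.000138), -3.10 for Hells (adjusted p = 0.00357), -2.93 for Uhrf1 (adjusted p = 0.00179) and -2.61 for Ung (adjusted p = 0.000764). It was -1.45 for Chaf1b (adjusted p = 0.00763), -1.31 for Dnmt1 (adjusted p = 0.00261), -0.92 for Pcna (adjusted p = 0.00602) and -0.87 for Slbp (adjusted p = 0.00206). In KIKO cells Dnmt1 fell and Uhrf1, Cdca7 and Pcna rose, while in KI cells all 9 rose. The summed level of T cell markers also differed in activated cells (477 to 704 FPKM in KIKO and 1020 to 1210 in KI libraries), and its part in these results was not tested. Groups of 3 libraries are too small to look for single outlying samples.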

How the results depend on the processing

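Under every alternative run, 9 members were called lower in activated KIKO cells and 9 higher on stimulation of KI cells, except with a filter of 5 FPKM, which left Chaf1b untested (8 of 8 each). The interaction was called lower for 8 members, and for 8 to 9 when a library was left out, since Chaf1a (-1.46) was called in 5 settings, among them quantile normalization (-1.68). In naive cells, members called higher numbered 0, but 1 with a pseudocount of 0.1 or equal sums (Cdca7), and 0 to 1 with a library left out. Members called lower numbered 1, but 3 with quantile normalization (Slbp, Pcna and Dnmt1) and 2 within the libraries compared, and 0 to 3 with a library left out, 0 without KIKO naive 1, KI naive 2 or KI naive 3. On stimulation of KIKO cells, members called lower numbered 1, and 0 to 2 with a library left out.

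Values that were not called changed sign as follows, and the cause was not tested. In naive cells, KIKO minus KI, Uhrf1 (0.308) was -0.207 and Cdca7 -0.209 with summed starts alone, and without the libraries with myeloid transcripts Uhrf1 was -0.031 and Chaf1a 0.003. With a library left out, Uhrf1 ranged from -0.031 to 0.494 and Chaf1a from -0.529 to 0.003. On stimulation of KIKO cells, Slbp was -0.028 with quantile normalization and -0.067 with equal sums, and -0.017 to 0.129 with a library left out. Ung was 0.021 with quantile normalization and 0.341 without the libraries with myeloid transcripts, and -0.164 to 0.197 with a library left out. Cd69 in activated cells was -0.353 to 0.048 with a library left out. Uhrf1 on stimulation of KIKO cells was not called with no filter (adjusted p = 0.0529). Rfc4 and Nasp lost the interaction call with summed starts alone, and so did Cops3 in activated cells.

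Equal sums moved the median of all loci to 0.15 in the activated comparison (main 0.04) and 0.131 in the naive one (main 0.047), and calls to 2618 higher and 1419 lower (main 2021 and 1877) and to 1119 higher and 262 lower (main 629 and 380). Median-ratio scaling gave 429 higher and 541 lower in the naive comparison, and quantile normalization 487 and 498. In activated cells, base excision repair genes called lower numbered 3 instead of 5 with no filter, equal sums or summed starts, and those called higher 1 instead of 0 with equal sums. Under equal sums 2 silent chromatin genes were called higher instead of 0. The count of histone chaperones called higher was 1 instead of 2 under median-ratio scaling, summed starts or the libraries compared, and of histone mRNA processing genes 0 instead of 1 with quantile normalization. The interaction of clamp loading genes was called for 6 instead of 12 with summed starts, and on stimulation of KIKO cells 1 to 2 of them were called higher and 1 to 4 lower.

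With the replicate block, 9 members were lower in activated KIKO cells and 9 higher on stimulation of KI cells, and the interaction was called for 8. Deviations of same-numbered libraries from their group means correlated at -0.0288 to 0.121 between activated KIKO and KI, -0.0334 to 0.0629 between naive KIKO and KI, -0.00438 to 0.0939 between activated and naive KIKO, and 0.0555 to 0.102 between activated and naive KI libraries. Not every pair passed 0.1 in any of these, so the numbers were not taken to pair the samples. In KI each activated library correlated best with the naive library of its own number, and the 2 libraries with myeloid transcripts share a number, a hint from the data and not the design. FPKM carry no read numbers, so the sampling error of low members such as Chaf1a cannot be given.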
